A study of Mus musculus with 7 samples.

Results

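The genes described here build, duplicate and tether centrosomes, the paired-centriole bodies that organise microtubules and template cilia. They were chosen by name: protein-coding mouse symbols made of Cep and a number, together with 22 named genes, namely Plk4, Sass6, Stil, Cenpj, Ccp110, Cntrob, Cntln, Pcnt, Cdk5rap2, Nin, Pcm1, Poc1a, Poc5, Haus1 to Haus8 and Tubg1. This gave 57 genes, 35 of them by the Cep pattern, among 35727 rows of the counts table. All 57 passed the filter on low counts, so none was lost before testing.

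Their expression was measured by RNA sequencing in mouse tumour cells sorted by red fluorescent protein from transplanted undifferentiated pleomorphic sarcomas. The 3 libraries labelled Vgll3 came from a line labelled as overexpressing Vgll3, a cofactor of TEAD transcription factors, and the 4 libraries labelled Ccne1 from a line labelled as overexpressing Ccne1, the gene of cyclin E1. Both lines are labelled p53KO, for p53 knockout. Mesenchymal stem cells of female p53KO C57/Bl6 mice were transduced with a retroviral vector and passaged as subcutaneous tumours in wild-type females. The cells were grown briefly in DMEM with serum and transplanted again, into mice whose genotype is not stated. No age is given, each model is 1 transduced line, and no p53-competent or untransduced group was analysed here, so an effect of the transduced gene and any other difference between the lines cannot be told apart. The labels do not tie libraries to separate tumours or mice, and p-values therefore measure the spread between libraries, which may in part be technical.

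Library totals lay between 21725890 and 53610300 counts, with 17305 to 19022 genes detected. Vgll3 RNA averaged 252 ± 34.6 CPM in the Vgll3-labelled and 50.7 ± 8.57 CPM in the Ccne1-labelled libraries (SD, n = 3 and 4); CPM are counts scaled to library size by TMM factors. Ccne1 RNA was 14.9 ± 2.16 CPM in the Vgll3-labelled and 12.7 ± 5.61 CPM in the Ccne1-labelled libraries. It did not pass the test (edgeR adjusted p = 0.609), so groups are called by their labels. In Ccne1-labelled replicates 1 to 4 it was 6.73, 9.24, 18.3 and 16.7 CPM, against 12.7, 15.1 and 17.0 CPM in Vgll3-labelled replicates 1 to 3. Trp53 RNA was present in every library, at 70.7 ± 4.32 CPM in Vgll3-labelled and 66.4 ± 2.69 CPM in Ccne1-labelled ones (edgeR adjusted p = 0.298). With counts scaled within each chromosome its log2 fold change was 0.39 and passed (edgeR adjusted p = 0.00198). The knockout itself was not tested. Vgll3 replicate 3 stood apart, with correlations across genes of 0.959 and 0.963 to the rest of its group, where the remaining within-group pairs gave 0.980 to 0.988. Of 9 mesenchymal markers, Col1a1, Col1a2, Pdgfrb and Eng rose and Vim, Pdgfra and Prrx1 fell, and their sum was 34105 to 41027 CPM in Vgll3-labelled and 22250 to 27506 CPM in Ccne1-labelled libraries. Twist1 and Thy1 did not pass, and Thy1 was low, with 1.495 ± 1.08 CPM in Vgll3-labelled and 4.64 ± 3.60 CPM in Ccne1-labelled libraries. Summed endothelial markers were 33.6 to 230.1 CPM in the Vgll3-labelled and 49.2 to 132 CPM in the Ccne1-labelled libraries, highest in Vgll3 replicate 3, and 0 of 7 passed the test. Summed markers of macrophages, T cells, B cells and neutrophils stayed between 0.301 and 14.7 CPM in every Vgll3-labelled and between 0.0727 and 13.1 CPM in every Ccne1-labelled library, with 0 of 12 tested genes called. Erythroid markers summed to 0.189 to 2.21 CPM in Vgll3-labelled and 5.73 to 10.3 CPM in Ccne1-labelled libraries, epithelial markers to 0.151 to 1.00 CPM and 2.03 to 4.73 CPM, and adipocyte markers to 0.193 to 0.937 CPM and 0.836 to 2.29 CPM in those groups. Of the genes tested in these lists, 2 of 3 erythroid, 1 of 1 epithelial and 1 of 1 adipocyte markers fell. The adipocyte call, of Fabp4 (edgeR adjusted p = 0.0409), ended without Ccne1 replicate 1, 2 or 3 (0.0602, 0.120 and 0.0545) or Vgll3 replicate 1 or 2 (0.110 and 0.121). It also ended with scaling within each chromosome (0.0510) and a replicate block (0.0843). Without Vgll3 replicate 3, Trac and Cd68 of the immune lists fell (edgeR adjusted p = 0.0410 and 0.0427). Trac also fell with DESeq2 (0.0447) and limma-voom (0.0228), and Cd79a rose without Vgll3 replicate 1 (0.0404). Krt5, Cidec and Lep were at 0 in every library. The part of these cells in the results was not tested. In bulk RNA, fewer cells of a type and less RNA per cell cannot be told apart.

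A centrosome holds a pair of centrioles in a protein matrix, the pericentriolar material, from which microtubules grow. Each centriole templates one daughter in S phase: the kinase PLK4 is drawn to the parent by CEP152 and CEP192, binds STIL, and SASS6 then lays down the cartwheel that sets the symmetry of the wall. In G2 and mitosis the linker between the centrosomes is dissolved and the matrix enlarges to form spindle poles, and in resting cells the older centriole carries the appendages that dock the primary cilium. Extra centrioles and p53 loss are a well-known pair in tumour biology, because p53 halts cells that gain or lose centrosomes.

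Most of these genes were higher in the Vgll3-labelled tumours. Of 57 members, 37 rose and 5 fell at an edgeR adjusted p of 0.05, while 15 did not pass. Across all 13740 genes tested, 25.1% rose and 26.8% fell, 51.9% in all, so the 64.9% of members that rose lay well above the background share and the 8.77% that fell lay below it. The median log2 fold change was 0.49 for the members and 0.01 for all genes tested. The groups did not overlap for 42 members, 36 with every Vgll3-labelled library above every Ccne1-labelled one and 6 below, where the background over all genes was 26.8% above, 29.0% below and 55.7% in all. Fold changes were mostly modest. In the edgeR fit, Cntln, Cep126 and Cep72 differed more than 2-fold, and Cep72 did not pass. Without Vgll3 replicate 3, 36 members rose and 6 fell.

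**Figure D1:**
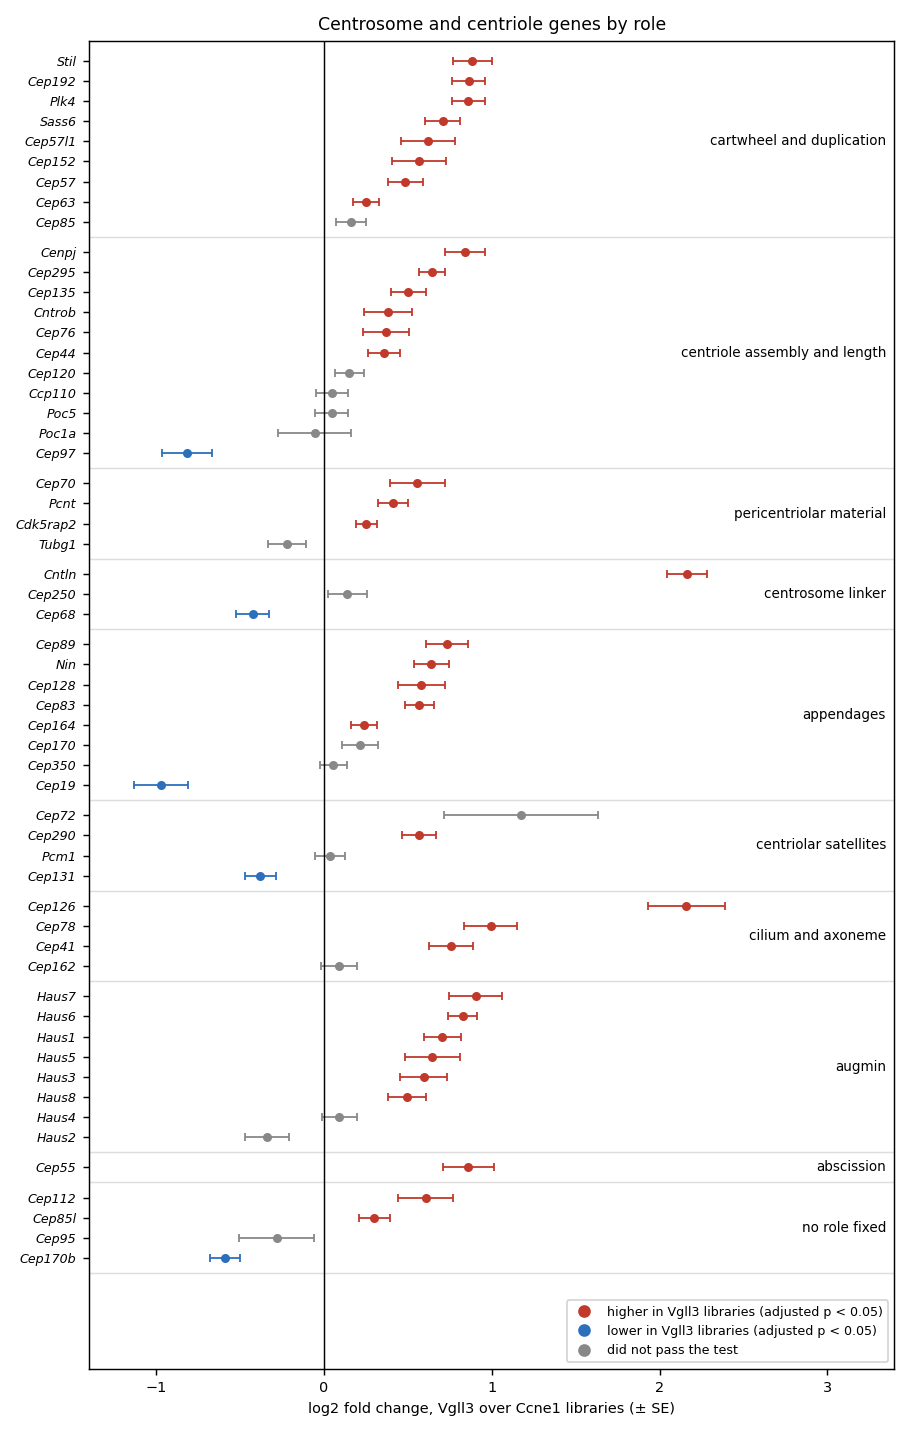
Log2 fold change, Vgll3-labelled over Ccne1-labelled libraries, with its SE, for 56 of the 57 members grouped by role; red and blue mark members that rose or fell at an edgeR adjusted p of 0.05 and grey those that did not pass. Points lie right of 0 for 47 of them, with Cntln and Cep126 farthest out, and the 5 blue points are Cep19, Cep97, Cep170b, Cep68 and Cep131; under per-chromosome scaling Cdk5rap2, Cep85 and Cep120 cross to the left and Tubg1 and Cep95 to the right.

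Upstream sequences are shown for 5 members that rose. Cntln and Cep126 had the largest changes, Stil and Sass6 act together in the cartwheel, and Cep55 acts at the end of division. Each run is the 250 bases before a RefSeq gene start on GRCm38.p6, the mm10 build, printed 5′ to 3′ along the gene. Cep126 and Cep55 have a further start that is not shown. For genes with several starts, the first window that held a match to a motif below was printed, so the window shown was picked for its match. The windows are chr4:84884059-84884308 on the + strand for Cntln, chr9:8134447-8134696 on the - strand for Cep126, chr3:116594708-116594957 on the + strand for Sass6, chr4:114999868-115000117 on the + strand for Stil and chr19:38054791-38055040 on the + strand for Cep55. Capitals mark matches on either strand to TTTGAA, the core of the cell cycle genes homology region bound by MuvB complexes, to an E2F site written as TTTGGCGC, TTTCCCGC, TTTGCCGC or TTTCGCGC, and to the CCAAT box bound by NF-Y.
Cntln: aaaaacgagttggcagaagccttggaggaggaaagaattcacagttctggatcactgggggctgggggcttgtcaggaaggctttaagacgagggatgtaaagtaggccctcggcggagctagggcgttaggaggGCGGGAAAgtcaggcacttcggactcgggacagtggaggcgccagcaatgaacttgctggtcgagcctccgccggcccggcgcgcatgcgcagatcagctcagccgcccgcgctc
Cep126: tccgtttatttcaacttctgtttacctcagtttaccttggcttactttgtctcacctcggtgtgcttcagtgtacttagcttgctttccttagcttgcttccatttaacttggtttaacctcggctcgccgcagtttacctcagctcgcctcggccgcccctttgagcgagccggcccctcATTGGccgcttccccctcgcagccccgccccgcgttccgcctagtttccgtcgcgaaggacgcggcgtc
Sass6: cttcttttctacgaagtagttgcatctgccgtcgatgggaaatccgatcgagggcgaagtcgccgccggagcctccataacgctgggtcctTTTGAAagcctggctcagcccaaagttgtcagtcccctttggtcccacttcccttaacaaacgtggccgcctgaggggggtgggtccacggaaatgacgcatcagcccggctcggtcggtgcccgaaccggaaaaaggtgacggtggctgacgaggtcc
Stil: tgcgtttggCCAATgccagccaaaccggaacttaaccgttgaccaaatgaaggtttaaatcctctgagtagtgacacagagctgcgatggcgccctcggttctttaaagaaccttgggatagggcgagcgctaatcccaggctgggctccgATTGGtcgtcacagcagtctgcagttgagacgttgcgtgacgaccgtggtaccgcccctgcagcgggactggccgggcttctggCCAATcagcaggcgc
Cep55: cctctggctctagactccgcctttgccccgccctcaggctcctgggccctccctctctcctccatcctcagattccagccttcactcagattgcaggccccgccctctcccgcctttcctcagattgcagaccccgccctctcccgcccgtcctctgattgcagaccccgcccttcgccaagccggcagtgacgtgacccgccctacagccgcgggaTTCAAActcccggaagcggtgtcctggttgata
Cntln carried an E2F match on its reverse strand, Cep126 a reverse CCAAT box, and Stil 3 CCAAT boxes. Sass6 carried TTTGAA on its own strand and Cep55 the same letters on the reverse strand, 33 bases before the start. RefSeq promoters were matched for 48 of 57 members. TTTGAA was found in 8 of these 48 (16.7%), against 18.3% of 27025 genes with a promoter, and CCAAT in 21 (43.8%), against 37.5%. An E2F string was found in 3 of the 48 (6.25%), against 2.16% of all genes, in Cntln, Cep63 and Cep128. The 27025 genes were not limited to those tested here, whereas every member was tested, so these shares come from unlike sets. Among the 32 matched members that rose, 6 held TTTGAA, 14 CCAAT and 3 an E2F string. Among the 16 matched members not called higher, 2 held TTTGAA, 7 CCAAT and 0 an E2F string. None of the motifs overlapped another in the 5 windows, and a match is a description of the letters, not of binding.

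Most genes that start a new centriole rose. Of 9 genes of the cartwheel and of duplication, 8 did and 0 fell, with a median log2 fold change of 0.62. Plk4, the kinase that licenses duplication (ENSMUSG00000025758, chromosome 3, 40800019 to 40816883), had 58.0, 60.6 and 61.3 CPM in Vgll3-labelled replicates 1 to 3, against 37.8, 27.9, 32.5 and 34.1 CPM in Ccne1-labelled replicates 1 to 4. Every Vgll3-labelled library stood clear of the highest Ccne1-labelled one, a 1.81-fold rise (log2 fold change 0.86 ± 0.10 SE, adjusted p = 0.000148 by edgeR). Stil, the PLK4 substrate that recruits SASS6 (ENSMUSG00000028718, chromosome 4, 115000159 to 115043196), had 19.4, 20.7 and 21.7 CPM in Vgll3-labelled libraries, against 10.9, 9.53, 11.1 and 13.0 CPM in Ccne1-labelled ones. Its groups were also apart (log2 fold change 0.88 ± 0.12 SE, adjusted p = 0.000287 by edgeR). Sass6 (ENSMUSG00000027959, chromosome 3, 116594982 to 116631004) had 12.5, 13.1 and 11.6 CPM in the Vgll3-labelled libraries, against 7.33, 7.70, 7.28 and 8.03 CPM in the Ccne1-labelled ones. Its spread within each group was small beside the gap between them (log2 fold change 0.71 ± 0.10 SE, adjusted p = 0.000496 by edgeR). Sass6 exons share 1502 bases, 24.5% of its own, with the opposite-strand gene Gm42893, which is absent from the deposited counts. They share 389 bases with the opposite-strand gene Trmt13. Reads of Sass6 and of these genes could be split between them.

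Among the receptors of PLK4 on the parent centriole, Cep192, also a scaffold of the pericentriolar material (ENSMUSG00000024542, chromosome 18, 67800107 to 67885170), had 57.3, 56.0 and 60.5 CPM in Vgll3-labelled libraries, against 33.5, 28.4, 29.0 and 36.8 CPM in Ccne1-labelled ones. It rose by 1.82-fold, beside 1.81-fold for Plk4 (log2 fold change 0.86 ± 0.10 SE, adjusted p = 0.000148 by edgeR). Cep152, the other receptor, averaged 10.7 ± 1.67 CPM in the Vgll3-labelled and 7.25 ± 1.08 CPM in the Ccne1-labelled libraries (log2 fold change 0.57, adjusted p = 0.0166 by edgeR). Cep57 and its paralog Cep57l1, which form a ring with CEP63 and CEP152 around the parent, rose by 0.49 and 0.62 on the log2 scale. Cep63, which brings CEP152 to the centriole, rose by 0.25 on the log2 scale (edgeR adjusted p = 0.0235). Cep85, a partner of STIL, had 25.6 ± 1.81 CPM in Vgll3-labelled and 22.9 ± 1.63 CPM in Ccne1-labelled libraries and did not pass (edgeR adjusted p = 0.154); when counts were scaled within each chromosome (per-chromosome scaling) its log2 fold change was −0.26, a fall (edgeR adjusted p = 0.0418). The Cep63 call ended without Ccne1 replicate 3 (edgeR adjusted p = 0.0539), without Vgll3 replicate 1 (0.0821) and without a filter on low counts (0.0812), and the Cep152 call without Vgll3 replicate 2 (0.0647).

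**Figure D2:**
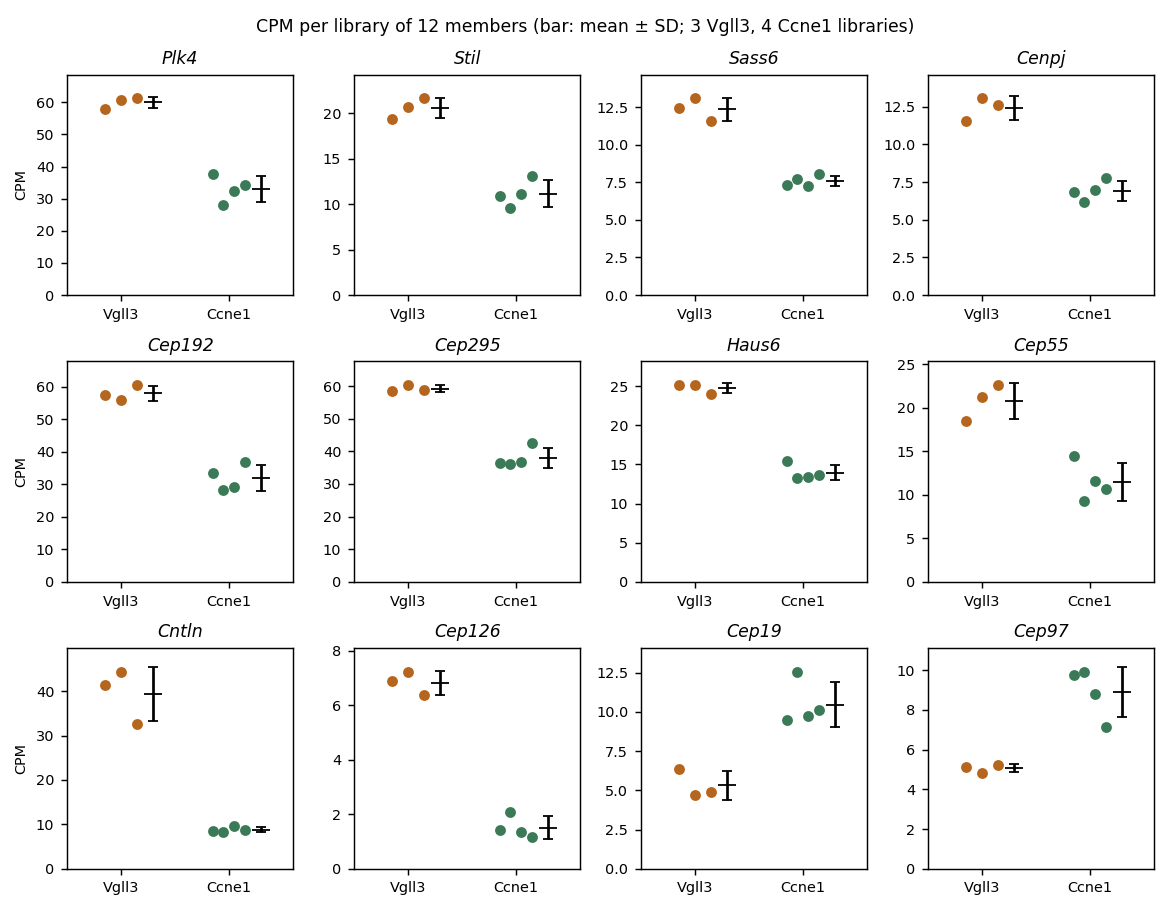
CPM in each library for 12 members, with Vgll3-labelled libraries left and Ccne1-labelled libraries right in each panel; points are libraries and bars the mean ± SD of 3 and 4 libraries. The Vgll3-labelled points sit above all Ccne1-labelled ones in 10 panels and below them for Cep19 and Cep97.

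Genes that elongate and mature the centriole were split. Of 11, 6 rose, 1 fell and 4 did not pass (median log2 fold change 0.36). Cenpj, the tubulin-binding protein that extends centriole microtubules (ENSMUSG00000064128, chromosome 14, 56526761 to 56575425), had 11.6, 13.1 and 12.6 CPM in the Vgll3-labelled libraries, against 6.82, 6.16, 6.998 and 7.78 CPM in the Ccne1-labelled ones. The groups did not overlap (log2 fold change 0.84 ± 0.12 SE, adjusted p = 0.000399 by edgeR). Cep295, which is needed for a new centriole to become a centrosome, had 58.3, 60.3 and 58.8 CPM in Vgll3-labelled libraries, against 36.4, 36.0, 36.7 and 42.5 CPM in Ccne1-labelled ones. Its log2 fold change was 0.64 (± 0.08 SE, adjusted p = 0.000185 by edgeR), with the Vgll3-labelled libraries within a few percent of each other. Cep135, which joins the cartwheel to the wall, and Cep44, a protein of the centriole lumen, rose by 0.50 and 0.36 on the log2 scale.

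Of the genes of the centriole cap, Cep97 fell and Ccp110 did not pass. Their proteins bind each other there and hold back centriole elongation and ciliation. Ccp110 had 18.8, 19.5 and 22.7 CPM in Vgll3-labelled libraries, against 19.8, 18.6, 19.1 and 21.2 CPM in Ccne1-labelled ones. The groups overlapped, with Vgll3 replicate 3 the highest library (log2 fold change 0.05 ± 0.10 SE, adjusted p = 0.699 by edgeR). Cep97 (ENSMUSG00000022604, chromosome 16, 55899888 to 55934855) fell to 5.10, 4.84 and 5.22 CPM in the Vgll3-labelled libraries, against 9.74, 9.91, 8.79 and 7.16 CPM in the Ccne1-labelled ones. Its log2 fold change was −0.82 (± 0.15 SE, adjusted p = 0.00169 by edgeR), and each Vgll3-labelled library was below the lowest Ccne1-labelled one. Cep76, a CCP110 partner that limits reduplication in human cells, averaged 15.1 ± 1.19 CPM in Vgll3-labelled and 11.7 ± 1.94 CPM in Ccne1-labelled libraries, just inside the threshold (edgeR adjusted p = 0.0479).

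Cntrob, a daughter-centriole protein, was similarly placed, with 17.3 ± 1.26 CPM in the Vgll3-labelled and 13.2 ± 2.37 CPM in the Ccne1-labelled libraries (edgeR adjusted p = 0.0474). Both sets of libraries overlapped for Cep76 and for Cntrob. Cep120, another daughter-centriole protein, had 49.7 ± 5.31 CPM in Vgll3-labelled and 44.7 ± 2.23 CPM in Ccne1-labelled libraries and did not pass (edgeR adjusted p = 0.172; log2 fold change 0.15, and −0.11 on per-chromosome scaling). Poc5, of the centriole lumen, had 14.99 ± 0.671 CPM in Vgll3-labelled and 14.5 ± 1.26 CPM in Ccne1-labelled libraries (edgeR adjusted p = 0.716), and Poc1a, which stabilises the wall, 5.0004 ± 0.990 CPM in Vgll3-labelled and 5.21 ± 1.06 CPM in Ccne1-labelled libraries (edgeR adjusted p = 0.842). The Cep76 call ended without Ccne1 replicate 1, 2 or 4 (edgeR adjusted p = 0.0868, 0.110 and 0.117) or Vgll3 replicate 1 or 2 (0.149 and 0.0892), without a filter (0.0677) and on per-chromosome scaling (0.550). That of Cntrob ended without Ccne1 replicate 2, 3 or 4 (edgeR adjusted p = 0.0655, 0.110 and 0.115) or Vgll3 replicate 1, 2 or 3 (0.0502, 0.138 and 0.0803) and without a filter (0.0503).

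Of 4 genes of the pericentriolar material, 3 rose and 0 fell. Pcnt, the scaffold pericentrin, had 69.3, 69.8 and 79.1 CPM in Vgll3-labelled libraries, against 60.3, 55.2, 48.0 and 55.3 CPM in Ccne1-labelled ones. The groups were apart (log2 fold change 0.41 ± 0.09 SE, adjusted p = 0.00472 by edgeR). Cdk5rap2, which activates γ-tubulin complexes, had 128, 136 and 139 CPM in Vgll3-labelled libraries, against 110.2, 111, 115 and 116 CPM in Ccne1-labelled ones. Its small difference was tight across libraries (log2 fold change 0.25 ± 0.06 SE, adjusted p = 0.00888 by edgeR), but turned to −0.16 on per-chromosome scaling (edgeR adjusted p = 0.0825). Cep70, which binds γ-tubulin, rose by 0.56 on the log2 scale (edgeR adjusted p = 0.0188), a call that ended without Vgll3 replicate 2 (0.0917).

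Tubg1, the remaining gene of this group, encodes γ-tubulin, the nucleator of microtubules. It had 31.0, 34.6 and 38.1 CPM in the Vgll3-labelled libraries, against 45.2, 34.7, 43.0 and 38.4 CPM in the Ccne1-labelled ones. The highest Vgll3-labelled library lay above the lowest Ccne1-labelled one, so the groups overlapped, and the difference did not pass (log2 fold change −0.22 ± 0.11 SE, adjusted p = 0.126 by edgeR; 0.08 on per-chromosome scaling). Its reads could be split with those of its close paralog Tubg2.

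The centrosome linker, the fibres that tie the pair of centrosomes together until mitosis, held the member with the lowest p-value. Cntln, the linker protein centlein (ENSMUSG00000038070, chromosome 4, 84884309 to 85131921), had 41.3, 44.3 and 32.5 CPM in Vgll3-labelled libraries, against 8.46, 8.37, 9.57 and 8.76 CPM in Ccne1-labelled ones. Even the lowest Vgll3-labelled library was far above the highest Ccne1-labelled one, and the rise was 4.48-fold, close to that of Cep126 (log2 fold change 2.16 ± 0.12 SE, adjusted p = 5.002e-06 by edgeR). Cep68, a fibre protein that CNTLN binds, fell to 17.3, 18.7 and 20.5 CPM in Vgll3-labelled libraries, against 27.4, 22.9, 24.8 and 26.3 CPM in Ccne1-labelled ones. That is a log2 fold change of −0.43 (± 0.10 SE, adjusted p = 0.00529 by edgeR), which on per-chromosome scaling was −0.13 and did not pass (edgeR adjusted p = 0.284). Cep250, the anchor of the fibres, averaged 83.9 ± 9.05 CPM in Vgll3-labelled and 76.2 ± 10.5 CPM in Ccne1-labelled libraries (edgeR adjusted p = 0.346).

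Appendage genes mostly rose: 5 of 8 did and 1 fell, with a median log2 fold change of 0.40. Nin, ninein, which anchors microtubules at the subdistal appendages, had 75.17, 78.86 and 75.03 CPM in Vgll3-labelled libraries, against 55.2, 40.9, 46.5 and 53.7 CPM in Ccne1-labelled ones. Its groups were well separated (log2 fold change 0.64 ± 0.10 SE, adjusted p = 0.000971 by edgeR). The distal appendage genes Cep89 and Cep83, which attach the centriole to the membrane, rose by 0.73 and 0.57 on the log2 scale, and Cep164 by 0.24 (edgeR adjusted p = 0.0302). Cep89 averaged 23.4 ± 4.59 CPM in the Vgll3-labelled and 14.1 ± 0.544 CPM in the Ccne1-labelled libraries, with Vgll3 replicate 3 the highest at 28.7 CPM. Cep128, a subdistal appendage protein, rose by 0.58 on the log2 scale, while Cep170 of the same structure, at 152 ± 17.6 CPM in Vgll3-labelled and 131 ± 13.9 CPM in Ccne1-labelled libraries, did not pass (edgeR adjusted p = 0.122).

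Cep19 fell. Its protein works with CEP350 at the parent centriole to bring in the GTPase that starts intraflagellar transport. Cep19 (ENSMUSG00000035790, chromosome 16, 32099800 to 32108069) had 6.37, 4.69 and 4.92 CPM in Vgll3-labelled libraries, against 9.46, 12.5, 9.72 and 10.1 CPM in Ccne1-labelled ones. The groups did not overlap (log2 fold change −0.97 ± 0.16 SE, adjusted p = 0.00107 by edgeR), and it was the most lowered member. Cep350 had 74.0 ± 3.16 CPM in the Vgll3-labelled and 71.2 ± 5.68 CPM in the Ccne1-labelled libraries (edgeR adjusted p = 0.577). The Cep164 call ended without Ccne1 replicate 1, 3 or 4 (edgeR adjusted p = 0.0715, 0.0667 and 0.0672), without Vgll3 replicate 2 or 3 (0.0617 and 0.0667) and without a filter (0.0578).

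Centriolar satellites are granules that ferry proteins to the centrosome. Of 4 members there, 1 rose, 1 fell and 2 did not pass, shares near those over all genes tested (25.1% and 26.8%). Pcm1, their scaffold, had 179.9, 169 and 150.3 CPM in Vgll3-labelled libraries, against 145, 173, 162 and 169 CPM in Ccne1-labelled ones. The values interleaved (log2 fold change 0.04 ± 0.09 SE, adjusted p = 0.759 by edgeR). Cep290, a satellite and ciliary gate protein, rose by 0.56 on the log2 scale (edgeR adjusted p = 0.00160), while Cep131 fell to 28.5 ± 3.64 CPM in Vgll3-labelled libraries, against 37.1 ± 0.735 CPM in Ccne1-labelled ones (log2 fold change −0.38, adjusted p = 0.00748 by edgeR; −0.08 and 0.463 on per-chromosome scaling). Cep72 was the member with the fewest reads, 1.63 ± 0.477 CPM in Vgll3-labelled and 0.711 ± 0.348 CPM in Ccne1-labelled libraries with as few as 6 counts in a library. Its groups did not overlap, but at this depth the log2 fold change of 1.17 had an SE of 0.46 and did not pass (edgeR adjusted p = 0.0583). Without Vgll3 replicate 3 it did (edgeR adjusted p = 0.0324), as it did with DESeq2 (0.0401) and limma-voom (0.0378).

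Of 5 members known mainly from cilia, 4 rose and 0 fell (median log2 fold change 0.76). Cep126, a microtubule-binding protein of the cilium base (ENSMUSG00000040729, chromosome 9, 8076461 to 8134294), had 6.88, 7.22 and 6.36 CPM in Vgll3-labelled libraries, against 1.41, 2.10, 1.36 and 1.16 CPM in Ccne1-labelled ones. Low in both groups, it was nonetheless 4.47-fold higher with no overlap (log2 fold change 2.16 ± 0.23 SE, adjusted p = 9.41e-05 by edgeR). Cep78, a centriole protein that controls cilium formation, had 9.39, 12.02 and 9.57 CPM in Vgll3-labelled libraries, against 4.28, 5.004, 6.07 and 5.34 CPM in Ccne1-labelled ones, a log2 fold change of 0.99 (± 0.16 SE, adjusted p = 0.000815 by edgeR). Cep41, needed for tubulin glutamylation in the axoneme, rose by 0.76 on the log2 scale. Cep162, which marks the axoneme base, had 21.1 ± 2.60 CPM in Vgll3-labelled and 19.9 ± 1.61 CPM in Ccne1-labelled libraries (edgeR adjusted p = 0.522).

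Augmin is a complex of 8 subunits, HAUS1 to HAUS8, that seeds new microtubules along existing spindle fibres by recruiting γ-tubulin. Of its 8 genes, 6 rose and 0 fell (median log2 fold change 0.62). Haus6, the subunit that contacts the γ-tubulin complex through NEDD1, had 25.1, 25.1 and 24.0 CPM in Vgll3-labelled libraries, against 15.5, 13.3, 13.4 and 13.7 CPM in Ccne1-labelled ones. It had the smallest p of the complex (log2 fold change 0.83 ± 0.09 SE, adjusted p = 8.24e-05 by edgeR). Haus7 averaged 21.9 ± 2.83 CPM in Vgll3-labelled and 11.7 ± 2.22 CPM in Ccne1-labelled libraries, a log2 fold change of 0.90 (adjusted p = 0.00134 by edgeR).

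Haus1, Haus5, Haus3 and Haus8 rose by 0.70, 0.65, 0.60 and 0.49 on the log2 scale. Their edgeR adjusted p-values were 0.000763, 0.00943, 0.00651 and 0.00619, and none overlapped between groups. Haus4 and Haus2 did not pass the test. Haus4 had 23.8 ± 2.94 CPM in Vgll3-labelled and 22.3 ± 1.81 CPM in Ccne1-labelled libraries (edgeR adjusted p = 0.496). Haus2 had 13.7, 14.1 and 10.1 CPM in Vgll3-labelled libraries, against 14.4, 15.8, 16.7 and 17.1 CPM in Ccne1-labelled ones. All Vgll3-labelled values were the lower ones, yet the difference missed the threshold (log2 fold change −0.34 ± 0.13 SE, adjusted p = 0.0580 by edgeR). Without Vgll3 replicate 2 its edgeR adjusted p was 0.0499, and with limma-voom 0.0468. Haus5 shares 1952 exon bases, 56.5% of its own, with the same-strand transcript Gm21982, which is absent from the deposited counts. Haus1 shares 129 with the opposite-strand gene Atp5a1, which had 166288 counts over all libraries. The split of reads between such pairs is uncertain. Cep290 and Cep295 likewise share 881 and 1765 exon bases with genes on the opposite strand. Poc5 shares 1604, 25.7% of its own, with the opposite-strand gene Ankdd1b, which had 1 count over all libraries.

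Cep55, which places the abscission machinery at the midbody rather than acting in duplication (ENSMUSG00000024989, chromosome 19, 38055011 to 38074423), had 18.5, 21.3 and 22.6 CPM in Vgll3-labelled libraries, against 14.4, 9.24, 11.6 and 10.6 CPM in Ccne1-labelled ones. The groups stood apart (log2 fold change 0.86 ± 0.15 SE, adjusted p = 0.00139 by edgeR). The last 4 members had no role assigned. Cep112 and Cep85l rose by 0.61 and 0.30 on the log2 scale, and Cep170b, a paralog of Cep170, fell to 40.7 ± 4.51 CPM in Vgll3-labelled libraries, against 61.2 ± 3.17 CPM in Ccne1-labelled ones (log2 fold change −0.59 ± 0.09 SE, adjusted p = 0.000647 by edgeR). Cep95 had 4.91, 4.65 and 8.80 CPM in Vgll3-labelled libraries, against 7.64, 7.35, 7.03 and 7.74 CPM in Ccne1-labelled ones, so that 1 Vgll3-labelled library lay above the other group and the remaining ones below it. Its log2 fold change of −0.28 did not pass (edgeR adjusted p = 0.312) but was −0.63 and passed without Vgll3 replicate 3 (edgeR adjusted p = 0.00395). The Cep85l call (edgeR adjusted p = 0.0221) ended without Ccne1 replicate 3 (0.0649), without Vgll3 replicate 2 (0.0871), without a filter (0.0600) and on per-chromosome scaling (0.121).

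Related genes outside the rule were counted to place the members, beside the 25.1% of all genes tested that rose and the 26.8% that fell. Of 9 tested partners in the γ-tubulin complex, 1 rose and 4 fell (median log2 fold change −0.18): Tubgcp2 rose by 0.44 on the log2 scale, and Mzt2 and Tubgcp4 had log2 fold changes of −0.95 and −0.52. Of 25 other centriole genes, 10 rose and 5 fell (median 0.30). Aspm, a spindle-pole protein, and Rttn, which extends centrioles, rose by 1.33 and 1.21, and Ttbk2, the kinase that removes the CCP110 cap, had a log2 fold change of −0.95 and Tedc2 one of −0.58. Of 14 genes of the mitotic spindle pole, 10 rose and 3 fell (median 0.81), with Kif11 and Kif15, the spindle kinesins, up by 1.35 and 1.28 and Tacc2 and Tacc1 at −0.60 and −0.49.

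General cell cycle genes moved in the same direction as the members. Of 20 G2/M genes, 19 rose and 0 fell, with a median log2 fold change of 1.00, led by Kif20a (1.45) and Nuf2 (1.36). Of 20 G1/S genes, 17 rose and 0 fell, with a median of 0.62, led by E2f2 (1.95) and Ccne2 (1.64). The summed G2/M genes came to 1505 to 1773 CPM in the Vgll3-labelled libraries and 639 to 1031 CPM in the Ccne1-labelled ones, and their part in the members' differences was not tested. Of 25 tested genes of the primary cilium, 4 rose and 9 fell (median −0.15), with Bbs7 and Bbs2 up by 0.97 and 0.37 and Mks1 and Bbs9 at −0.99 and −0.75. With any 1 library omitted other than Ccne1 replicate 2, 2 of them rose, without a filter on low counts 1, and 8 to 11 fell. Bbs2 was among the calls that ended, for instance without Vgll3 replicate 1 (edgeR adjusted p = 0.0952). Of the other centriole genes, 2 fell on per-chromosome scaling and 3 without Ccne1 replicate 1 or Vgll3 replicate 1 or 2. The Tedc2 call ended on that scale (edgeR adjusted p = 0.258), without Vgll3 replicate 1 (0.0552) and with replicate number as a block (0.0567). The median of each of these 6 lists kept its sign in every alternative run.

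**Figure D3:**
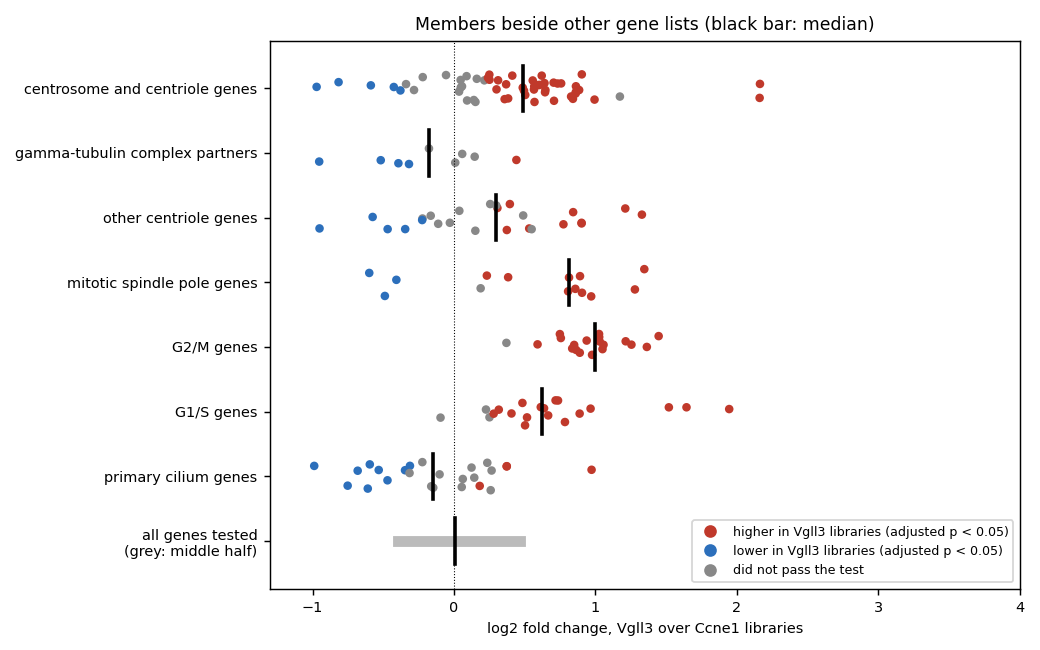
Log2 fold change, Vgll3-labelled over Ccne1-labelled libraries, of the 57 members and of the tested genes of 6 other lists; each point is a gene, colours mark the edgeR call and black bars the median. Medians are 0.49 for the members, 1.00 for G2/M genes, −0.15 for primary cilium genes and 0.01 for all genes tested, whose interquartile range is the grey bar.

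Median log2 fold changes differed between chromosomes, from −0.33 on chromosome 17 to 0.44 on chromosome 4, with 0.39 on chromosome 6, 0.29 on chromosome 18 and −0.30 on chromosome 11. Of 6 members on chromosome 4, 5 rose and 0 fell, Cdk5rap2, Cntln, Haus6 and Stil among them, and of 6 on chromosome 11, 2 rose and 2 fell. Both members on chromosome 16, Cep19 and Cep97, fell, where the median was −0.15. The counts were also scaled within each chromosome, by TMM factors from that chromosome's genes. On that scale 33 members rose and 4 fell, where 6534 of all 13740 genes tested were called in either direction. The median over members was 0.41, against 0.01 for all genes tested. Cntln kept a log2 fold change of 1.75, Stil 0.47 and Haus6 0.41, while Cdk5rap2 and Cep85, of the same chromosome, turned negative. In all, 6 members changed sign, among them Cep120, which turned negative, and Tubg1 and Cep95, which turned positive. DNA copy number was not measured, and its part in these medians was not tested. The medians of the roles, from the cartwheel to augmin, stayed above 0 on this scale, but several shrank. Centriole assembly and length went from 0.36 to 0.11, cilium members from 0.76 to 0.39 and pericentriolar material from 0.33 to 0.19. Medians of the linker, the satellites and the members with no role assigned grew, to 0.23, 0.32 and 0.10.

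**Figure D4:**
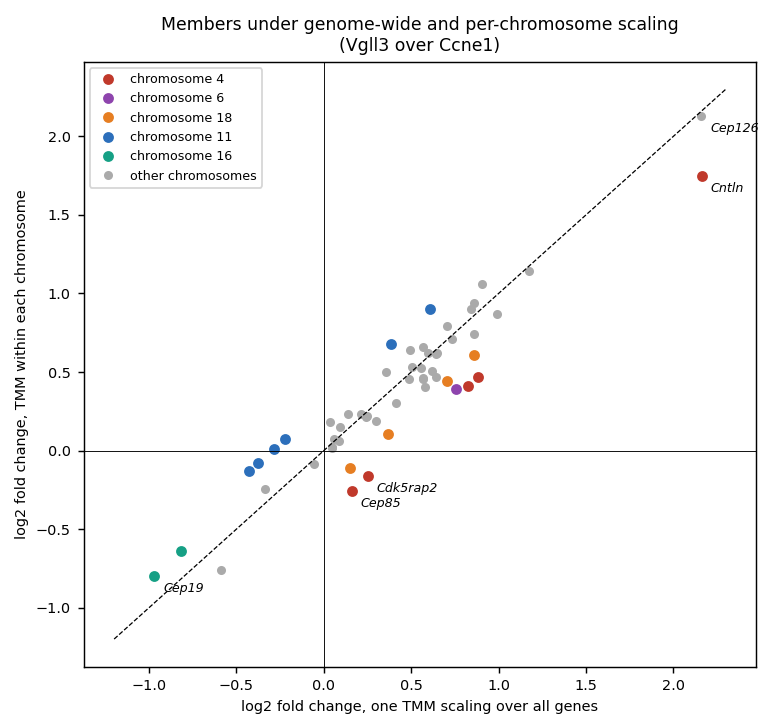
Log2 fold change of 56 members on one scaling over all genes (horizontal) against scaling within its own chromosome (vertical), Vgll3-labelled over Ccne1-labelled libraries; the dashed line marks equal values. Members of chromosomes 4, 6 and 18 lie below the line and those of chromosomes 11 and 16 above it, and Cdk5rap2 and Cep85 cross to negative values on the vertical axis.

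The surroundings of both strongly raised members were examined after their values were seen. A gene was included where any of its bases lay within 1 Mb of the member's bounds. Around Cntln, 3 other genes were tested and 1 rose, Bnc2, with 56.0 ± 4.19 CPM in Vgll3-labelled and 29.1 ± 0.945 CPM in Ccne1-labelled libraries (log2 fold change 0.95, adjusted p = 2.25e-05 by edgeR). Around Cep126, 13 were tested, of which 4 rose and 4 fell, shares near those over all genes (25.1% and 26.8%). On one side Trpc6, a calcium-permeable channel, and Arhgap42, a GTPase-activating protein, rose with it, by 2.88 and 2.56 on the log2 scale. Trpc6 was scarce, with 1.05 ± 0.443 CPM in Vgll3-labelled and 0.141 ± 0.0372 CPM in Ccne1-labelled libraries. Arhgap42 had 232 ± 59.6 CPM in the Vgll3-labelled and 39.4 ± 5.40 CPM in the Ccne1-labelled libraries. On the other side Birc2 and Birc3, the apoptosis inhibitors, rose by 1.04 and 0.65, and Yap1, between them and Cep126, had 188 ± 21.3 CPM in Vgll3-labelled and 179 ± 13.6 CPM in Ccne1-labelled libraries (edgeR adjusted p = 0.601). Farther along that side the matrix metalloproteinase genes Mmp10, Mmp3, Mmp12 and Mmp13 had log2 fold changes of −4.31, −5.79, −5.10 and −5.31. The Birc3 call (edgeR adjusted p = 0.0464) ended whenever 1 library was omitted (0.0972 to 0.157) other than Ccne1 replicate 2 and Vgll3 replicate 3. It also ended without a filter (0.136), on per-chromosome scaling (0.0562) and with replicate number as a block (0.0976). The Mmp10 call (edgeR adjusted p = 0.0225) ended without Ccne1 replicate 2 (0.0557) or Vgll3 replicate 2 (0.0574). It also ended without a filter (0.0589) and with replicate number as a block (0.102). The Mmp13 call (edgeR adjusted p = 0.00937) ended with that block (0.0839). Without Vgll3 replicate 3, 7 neighbours of Cep126 rose, with Dcun1d5, Dync2h1 and Tmem123 added (edgeR adjusted p = 0.00794, 0.0400 and 0.00769), and Adamtsl1 near Cntln fell (log2 fold change −1.86, adjusted p = 0.0110 by edgeR). Cfap300 near Cep126 rose without Ccne1 replicate 2 (edgeR adjusted p = 0.0463), and Gm12416 near Cntln fell on per-chromosome scaling (0.0375).

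**Figure D5:**
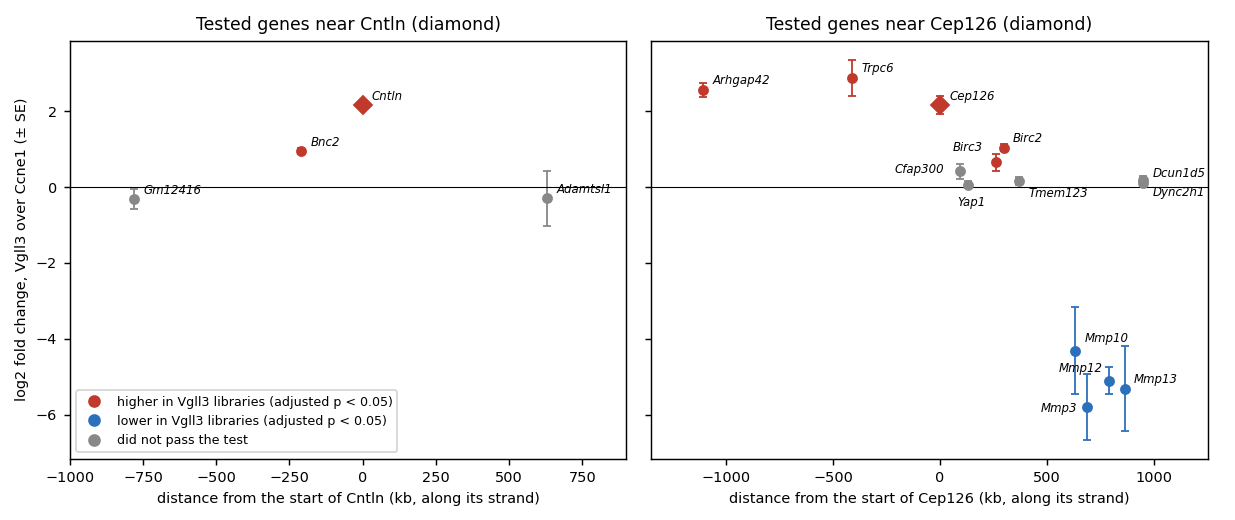
Log2 fold change with its SE, Vgll3-labelled over Ccne1-labelled libraries, for tested genes with any base within 1 Mb of the bounds of Cntln (left) and Cep126 (right), against the distance between gene starts in kb along the member's strand, which can exceed the window; diamonds are the members. Cep126, Trpc6 and Arhgap42 lie between 2.16 and 2.88, Yap1 near 0 and the Mmp genes below −4.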

How the data were processed

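RNA of RFP-positive sarcoma cells was sequenced as polyA libraries, 3 labelled Vgll3 and 4 labelled Ccne1; titles gave the groups and replicate numbers. Estimated counts for each Ensembl gene were deposited by the authors, unscaled. Salmon and the mm10 genome are named in the submitters' processing notes. Its version, the annotation and any strand setting: not given in the sources used here, so reads of overlapping genes may be split between them. All values were whole, and rounding changed 0 of them. Symbols and coordinates came from GENCODE M21 (GRCm38), which matched 35493 of 35727 rows.

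Genes were kept with edgeR's filterByExpr, which left 13740, scaled with TMM and tested with edgeR's quasi-likelihood F test (edgeR 4.0.16, R 4.3.3, robust, group as the only term, Benjamini-Hochberg over all genes tested, threshold 0.05). SE was derived from the log2 fold change and its F statistic. CPM means carry SDs over libraries. Members that share an exon with another gene were counted as deposited. Alternatives were DESeq2 1.42.0, limma-voom 3.58.1, DESeq2 size factors, TMM within each chromosome, no filter, a replicate block and leaving out each library. The code was tested on simulated data. A count of 3, the limit that a count of 0 allows, was 0.0577 to 0.136 CPM, for counting error only.

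The members, roles, lists and tests were chosen with earlier results of these data known. Named with values were the 22 members given by symbol, the 8 most raised called Cep genes, up to 8 lowered ones (5 were called) and the 4 uncalled Cep genes of highest mean CPM, the 2 most raised and 2 most lowered called genes of each list, the leading gene of each marker list, and the model genes; the remaining members are named so that each is accounted for, except 1 that is counted in the totals but not reported here by name. Promoters came from RefSeq (GRCm38.p6).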

Additional observations from a re-analysis of the deposited data

Results flagged for a closer look

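In 4 of 57 members, 1 of the 4 Ccne1-labelled libraries lay far from the other three; chance alone gives about 1 in 20. Cep295 was highest in Ccne1 replicate 4, at 42.5 CPM. Cep70 was highest in Ccne1 replicate 3, at 4.80 CPM. Haus6 was highest in Ccne1 replicate 1, at 15.5 CPM, and Cep83 lowest in Ccne1 replicate 2, at 21.2 CPM. Each of these values was still below every Vgll3-labelled library of the same gene. The 3 Vgll3-labelled libraries are too few for this check.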

How the results depend on the processing

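Of the 37 members that rose, 23 held their call under every alternative run, and of the 5 that fell, 3 did. The number that rose was 31 to 36 when 1 library was left out, 32 without a filter, 33 with TMM within each chromosome and 37 to 38 with the other scalings and tools; the number that fell was 5 to 6 with 1 library left out. Members not overlapping between groups numbered 42 to 45, and all genes called 6023 to 7334, with 1 library left out. Deviations from the group mean correlated weakly between libraries of the same replicate number (r −0.167 to −0.103) and of different numbers (−0.0356 to 0.155). The same-number values were all negative and all lay below those of different numbers. These weak correlations cannot settle whether the numbers pair libraries or whether libraries were handled together. With replicate number as a block, 23 members rose and 3 fell, and 4841 genes were called. The block ended 16 member calls, and the ended calls given above for single members leave this run out. Among the 16 were Cdk5rap2, Haus5, Cep57l1, Cep68, Cep131, Cep135, Cep44 and Cep112 (edgeR adjusted p = 0.0513 to 0.0992 with the block). Among the members that the naming rule fixed, signs turned as follows. With TMM within each chromosome the log2 fold change was −0.16 for Cdk5rap2, −0.11 for Cep120 and 0.075 for Tubg1. With 1 library left out it ran over −0.031 to 0.096 for Ccp110 (lowest without Vgll3 replicate 3), −0.030 to 0.11 for Pcm1 (lowest without Vgll3 replicate 1), −0.17 to 0.096 for Poc1a (highest without Vgll3 replicate 1) and −0.0054 to 0.091 for Poc5 (lowest without Ccne1 replicate 1). Of these, Cdk5rap2 alone had passed the test, and the cause was not tested. Depth limits Cep72, with as few as 6 counts in a library; 52 members had at least 100 counts in every library.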

Other observations

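A pair of centrosome genes fell outside the rule because GENCODE M21 lists them under older symbols. Fgfr1op, now Cep43, a distal centriole protein, had 12.03 ± 0.617 CPM in Vgll3-labelled and 24.6 ± 4.48 CPM in Ccne1-labelled libraries (log2 fold change −1.03 ± 0.14 SE, adjusted p = 0.000402 by edgeR). Fopnl, now Cep20, a satellite protein related to it, had 18.8 ± 0.378 CPM in Vgll3-labelled and 24.8 ± 0.641 CPM in Ccne1-labelled libraries (log2 fold change −0.40 ± 0.07 SE, adjusted p = 0.00159 by edgeR). Counted as members, a choice made after seeing the data, they would bring the number that fell to 7, with 37 still higher.

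Within the Vgll3-labelled group, replicate 3 was the highest library for 29 of 57 members (50.9%), against 39.6% of all genes tested, and replicate 1 the lowest for 30 (52.6%), against 33.8%. Within the Ccne1-labelled group, replicate 2 was the lowest for 22 members (38.6%), against 25.2% of all genes tested.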
